A study of Mus musculus with 24 samples.

Results

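The integrin and laminin genes were followed across mouse liver ductal and mesenchymal cells. The members were all gene symbols of the form Itga or Itgb plus a chain name, or Lama, Lamb or Lamc plus a chain number, which gave 38 genes, 27 integrin chains and 11 laminin chains, of the 49568 genes in each of 2 expression tables. The first table held 4 fractions sorted from the undamaged livers of 3 littermates, mice A, E and F, aged 12 weeks, on a C57BL/6 background and heterozygous for B6.129S4-Pdgfratm11(EGFP)Sor/J, an allele that puts a nuclear green reporter under the control of Pdgfra. All 4 fractions were negative for CD45, CD11b and CD31, and they were the EpCAM+ ductal cells (DCs), the PDGFRα+SCA1- and PDGFRα+SCA1+ mesenchymal cells and the PDGFRα-SCA1+ stromal cells. Mice A and E were male and mouse F was female. The second table held 12 samples from wild-type C57BL/6 adults aged 8 to 12 weeks, in 6 groups of 2: DCs and SCA1+ mesenchymal cells (SCA1+Msc) as sorted at day 0, DCs grown as organoids for 15 days in growth factor-rich expansion medium (EM) or on a transwell insert above SCA1+Msc in mesenchymal medium, and the SCA1+Msc cultured alone or below the organoids. Per the study's methods, the cultured DCs came from 2 littermates and the cultured SCA1+Msc from another 2, so the organoids of both kinds drew on the same 2 mice and so did the SCA1+Msc, and the labels do not tie a sample to a mouse. By the same methods, the SCA1+Msc for co-culture were expanded in mesenchymal medium before the DCs were added for 15 days. Their time in culture was therefore longer than that of the organoids. SCA1+Msc were sorted without the PDGFRα reporter, and organoids grew in Matrigel, an extract that itself contains laminin. Co-cultured and EM organoids differed both in medium and in the presence of SCA1+Msc, so the effects of these cannot be told apart.

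Integrins are receptors of an alpha and a beta chain that span the plasma membrane and tie the cytoskeleton to the matrix or to other cells. The alpha chain mostly sets the ligand: some chains bind collagen, some laminin, some the RGD tripeptide of fibronectin, vitronectin and latent TGF-β, and some are made by leukocytes. Laminins are trimers of an alpha, a beta and a gamma chain that polymerise into the basement membrane under epithelia, around vessels and around smooth muscle. In the liver, bile ducts and portal vessels rest on a laminin-rich basement membrane, whereas the sinusoids lack a continuous one.

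Levels in the sorted fractions are the deposited per-length values, which were 0.722 to 1.39 times TPM. Those in the transwell samples are TPM computed from the deposited RPKM. Differences are on the log2(value + 1) scale from limma, with adjusted p-values over all genes tested, and a gene is said to rise, fall or differ only below an adjusted p of 0.05. Depth was 19.6 to 25.7 M gene-assigned reads in the fractions and 19.3 to 28.0 M in the transwell samples. Quantile normalization moved the median of all genes from -0.28 to -0.10 for PDGFRα+SCA1+ cells against DCs, from -0.47 to -0.13 for PDGFRα+SCA1- cells against DCs, from 0.25 to 0.04 for PDGFRα-SCA1+ against PDGFRα+SCA1+ cells, from 0.15 to 0.01 between the PDGFRα+ fractions, from 0.12 to 0 for EM organoids against day 0 DCs and from -0.13 to -0.01 for co-cultured against EM organoids, so the medians of all genes are given beside those of the members. The sorted labels were checked against marker genes. Epcam stood at 2966 to 3091 in the DCs of the fractions and the mesenchymal list summed to 30321 to 53462 in both PDGFRα+ fractions. The PDGFRα-SCA1+ fraction went against a mesenchymal label: its 7 mesenchymal markers summed to 289.7 to 481, with Pdgfra at most 0.0402, while the 7 endothelial markers summed to 3071 to 3204, against at most 22.8 in the other fractions. It is called by its gate here. Its mouse F library also carried leukocyte RNA, with the 4 leukocyte markers summing to 829.9 against 4.99 in the lowest library of the gate, and Cd3g at 39.5. Its mouse E library had the highest ductal and hepatocyte marker sums of the gate, 3706 against 79.2 and 314 and 6575 against 2892 and 2083 in mice A and F. In day 0 SCA1+Msc, Epcam stood at 53.8 and 113 and Pecam1 at 70.6 and 80.1. The hepatocyte markers summed to 20900.4 and 16230 there and the erythroid markers to 8678 and 10762. The mesenchymal list summed to 25969.5 and 24494.5 in the same libraries. The mesenchymal markers summed to at most 17.7 in both kinds of organoid. In such bulk samples, fewer cells of a type and less RNA per cell cannot be told apart.

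DCs and mesenchymal cells carried different sets of laminin chains and laminin receptors. Between PDGFRα+SCA1+ cells and DCs, 24 of the 34 members that passed the filter on low values differed, 11 higher and 13 lower, where 23.8% of all genes tested differed, 9.85% higher and 14% lower. The members' median was 0.53 and that of all genes -0.28. Between PDGFRα+SCA1- cells and DCs, 25 of 34 differed, 13 higher and 12 lower, against 28.8% of all genes, 9.98% higher and 18.9% lower, with a median of 0.55 for the members and -0.47 for all genes. Quantile normalization moved the split of all genes called from 1678 higher and 2376 lower to 2053 and 2001 for PDGFRα+SCA1+ cells and from 1699 and 3212 to 2161 and 2522 for PDGFRα+SCA1- cells, and that of the members to 12 and 11 and to 14 and 12. The 4 members that did not pass the filter in the fractions were Itga4, Itgad, Itgax and Itgb2, and Itgad was listed at 0 in every library. With any 1 library left out, 18 to 21 members differed for PDGFRα+SCA1+ cells and 19 to 26 for PDGFRα+SCA1- cells.

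**Figure D1:**
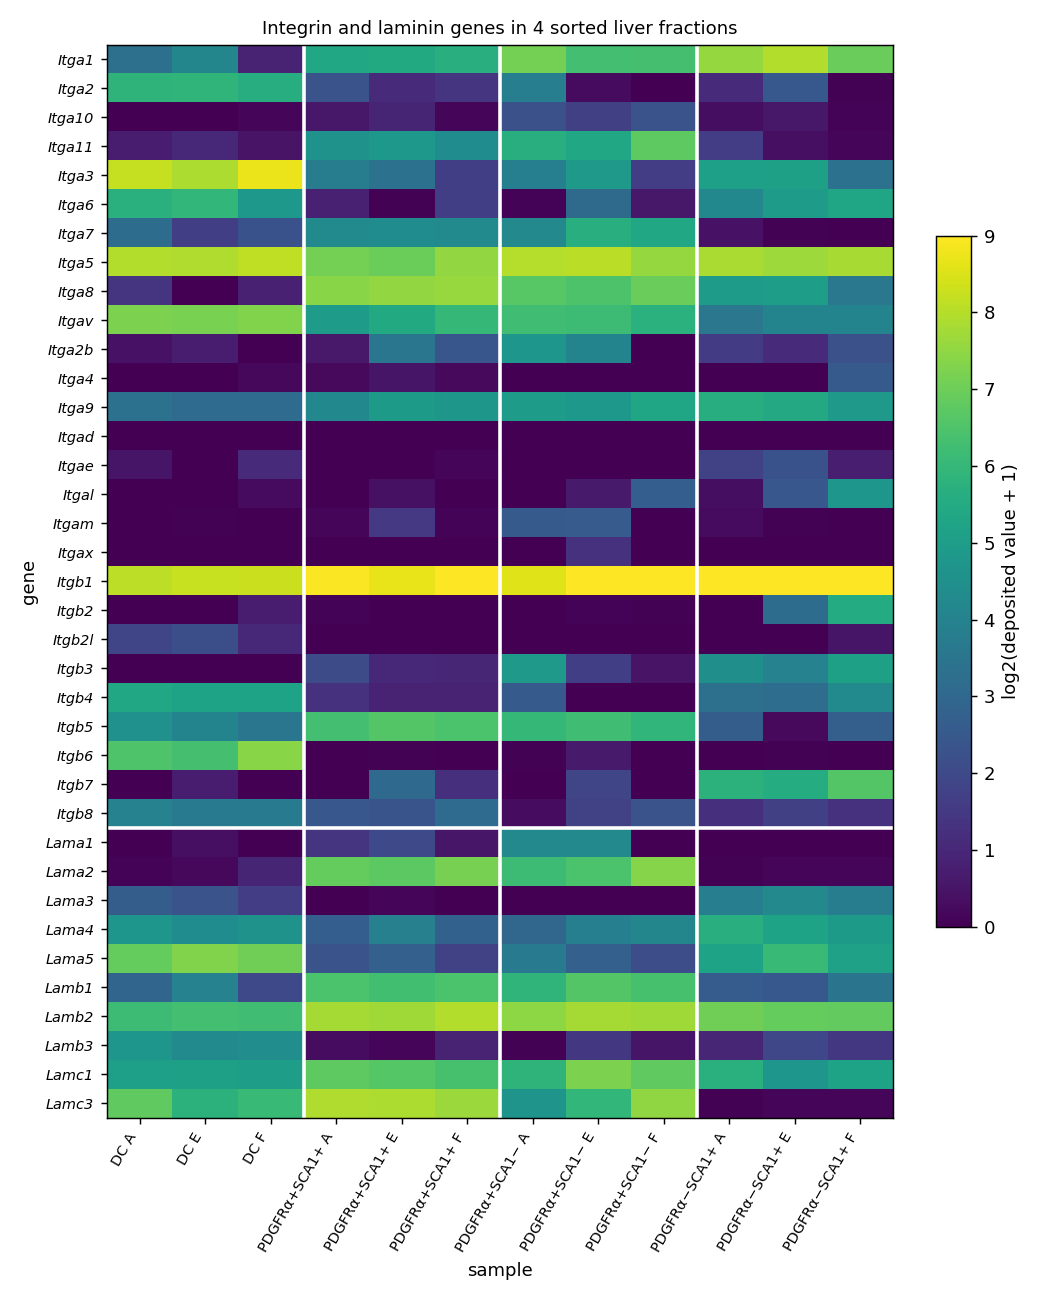
Each row is an integrin or laminin gene and each column 1 of the 12 sorted libraries, named by fraction and mouse; colour gives log2(deposited value + 1). Itgb6, Itga3 and Lama5 are bright in the 3 DC libraries, Itga8 and Lama2 in the PDGFRα+ libraries, and Itgb7 and Itgb3 in the PDGFRα-SCA1+ libraries.

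Of the chains of the epithelial laminins, Lama5 and Lamb3 set DCs apart, while Lama3 did not. Lama5, the α5 chain of mature epithelial and vascular basement membranes, stood at 117, 155 and 129.8 in the DCs of mice A, E and F, at 36.1, 66.9 and 34.5 in PDGFRα-SCA1+ cells and at 2.44 to 12.5 in the 6 PDGFRα+ libraries. Its order was therefore DCs, then PDGFRα-SCA1+, then the mesenchymal fractions, with no overlap between these levels. Lama5 fell by 4.79 ± 0.47 (SE, adjusted p = 1.2e-05) from DCs to PDGFRα+SCA1+ cells. Lamb3, the β3 chain, which is made mainly by epithelia, stood at 25.2, 18.5 and 20.3 in DCs and at 2.78 or less elsewhere (PDGFRα+SCA1+ minus DCs -4.03 ± 0.54, adjusted p = 0.000146). Lama3, the α3 chain, which joins β3 in epithelial laminin, was low in DCs, at 5.23, 3.92 and 2.11, and was higher in PDGFRα-SCA1+ cells, at 13.3, 17.7 and 12.9 (1.76 ± 0.46, adjusted p = 0.0141), a call lost without the DC library of mouse E or F (adjusted p = 0.0532 and 0.0965). For both Lama5 and Lama3 the highest library of the PDGFRα-SCA1+ gate was that of mouse E, which also had its highest ductal marker sum. Without it the differences from DCs were -1.89 for Lama5 (adjusted p = 0.0229) and 1.63 for Lama3 (0.038), against -1.59 (0.0276) and 1.76 with it. The Lama5 call was lost without each of the other libraries compared in turn, at an adjusted p of 0.0695 to 0.112. In PDGFRα+SCA1- cells Lama3 was listed at 0 in all 3 libraries, which against the value of 3 reads makes it at least 87.8-fold lower than in DCs.

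DCs also carried their own integrins. Itgb6, whose αvβ6 dimer activates latent TGF-β on epithelia, stood at 91.5, 80.7 and 167 in DCs, and its highest value in the 9 other libraries was 0.559. This was the largest fall of any member in each comparison of a fraction with DCs, -6.72 ± 0.48 (adjusted p = 1.09e-06) for PDGFRα+SCA1+ cells. Itgav, its alpha partner, stood at 148, 146 and 157 in DCs, while PDGFRα+SCA1- cells had 53.2 to 73.9, PDGFRα+SCA1+ cells 30.5 to 62.3 and PDGFRα-SCA1+ cells 10.8 to 15.8. Itgav was thus shared more broadly than Itgb6, and it fell by 1.77 ± 0.31 (adjusted p = 0.00112) from DCs to PDGFRα+SCA1+ cells. Itga3, a laminin receptor chain, stood at 295, 237 and 427 in DCs and at 2.12 to 33.5 in the other libraries (PDGFRα+SCA1+ minus DCs -5.35 ± 0.80, adjusted p = 0.000345). Itga2, a collagen receptor chain, stood at 57.4, 58.4 and 47.4 in DCs and at 13.4 or less elsewhere. Itgb4, the laminin receptor chain of hemidesmosomes, stood at 40.6, 36.4 and 36.6 in DCs, at 8.95, 8.34 and 18.4 in PDGFRα-SCA1+ cells and at 4.84 or less in the PDGFRα+ fractions. Its partner Itga6 followed the same order in part, at 51.0, 60.6 and 26.8 in DCs and 17.4, 29.3 and 38.0 in PDGFRα-SCA1+ cells, which overlapped, and at 7.60 or less in the PDGFRα+ fractions. Itgb8, another partner of αv, stood at 14.8, 11.9 and 11.9 in DCs and 7.87 or less elsewhere, and differed in the PDGFRα+SCA1- and PDGFRα-SCA1+ fractions (adjusted p = 0.0108 and 0.0107, the latter 0.0521 without the DC library of mouse A) but missed the threshold in PDGFRα+SCA1+ cells (adjusted p = 0.192).

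The mesenchymal fractions carried the chains of muscle and mesenchymal basement membranes. Lama2, the α2 chain of the muscle laminin, stood at 116, 105 and 141 in PDGFRα+SCA1+ cells, at 70.8, 86.6 and 163 in PDGFRα+SCA1- cells and at 0.918 or less in the 6 other libraries. From DCs to PDGFRα+SCA1+ cells it rose by 6.51 ± 0.45 (adjusted p = 7.75e-07). Itga8, a chain of the α8β1 receptor for nephronectin and other RGD ligands, stood at 168, 184 and 196 in PDGFRα+SCA1+ cells. PDGFRα+SCA1- cells had 101, 87.8 and 123, PDGFRα-SCA1+ cells 11.3 to 32.3 and DCs 1.53 or less. It was the largest rise of any member in PDGFRα+SCA1+ cells, 6.80 ± 0.45 (adjusted p = 5.12e-07). Itga11, a fibrillar collagen receptor of fibroblasts, stood at 23.1, 26.6 and 19.9 in PDGFRα+SCA1+ cells, at 50.4, 39.7 and 108 in PDGFRα+SCA1- cells and at 2.12 or less elsewhere. Lamb1, Lamb2 and Lamc1, the common β and γ chains, all rose in both PDGFRα+ fractions, by 3.43 ± 0.48, 1.58 ± 0.19 and 1.51 ± 0.36 in PDGFRα+SCA1+ cells (adjusted p = 0.000219, 7.38e-05 and 0.00845). Their levels there were 77.1 to 87.5, 209 to 248 and 81.8 to 108. Itgb5, a vitronectin receptor chain, stood at 78.6, 96.2 and 86.4 in PDGFRα+SCA1+ cells against 10.6 to 22.6 in DCs, and Itga7, the muscle laminin receptor chain, at 18.1, 19.9 and 18.2 against 2.21 to 7.97. The call of Itga7 in PDGFRα+SCA1+ cells (adjusted p = 0.0218) was lost without any 1 of 5 of the 6 libraries compared, with an adjusted p of 0.113 without the DC library of mouse E. Lama1, a chain of early embryonic laminin, stood at 18.0, 18.1 and 0 in PDGFRα+SCA1- cells, so its rise over DCs (2.71 ± 0.93, adjusted p = 0.047) rested on mice A and E, and it was lost without either of these libraries (adjusted p = 0.148 and 0.144) or any 1 DC library.

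A smaller set was shared by all fractions. Itgb1, the common beta chain that most alpha chains here pair with, was the most abundant beta chain, with 272 to 309 in DCs. PDGFRα+SCA1+ cells had 417 to 531, PDGFRα+SCA1- cells 376 to 578 and PDGFRα-SCA1+ cells 515 to 672. Its rise over DCs was 0.70 ± 0.21 (adjusted p = 0.0278), 0.71 ± 0.21 (adjusted p = 0.0234) and 1.04 ± 0.21 (adjusted p = 0.00281), and in each PDGFRα+ fraction the call was lost without any 1 of 5 of the 6 libraries (adjusted p up to 0.103 for PDGFRα+SCA1+ and 0.0873 for PDGFRα+SCA1- cells, both without the DC library of mouse A). Itga5, its partner in the classical fibronectin receptor, stood at 241 to 281, 125 to 184, 192 to 267 and 206 to 233 in the same order, and passed the threshold against DCs in PDGFRα+SCA1+ cells (-0.80 ± 0.22, adjusted p = 0.0173), where quantile normalization gave 0.0524 and leaving out 1 of 4 libraries up to 0.0775 (PDGFRα+SCA1+, mouse E). Itga9, a tenascin and osteopontin receptor chain, stood at 7.77 to 9.45 in DCs and at 17.2 to 47.5 in the other fractions, and rose in each, with an adjusted p of 0.0113 for PDGFRα+SCA1+ (0.0546 without that fraction's library of mouse E), 0.0021 for PDGFRα+SCA1- and 0.000839 for the PDGFRα- fraction. Lama4, the α4 chain of vessels and sinusoids, was highest in PDGFRα-SCA1+ cells, at 49.4, 36.6 and 28.8, followed by DCs at 25.6, 19.9 and 22.8. Its fall from DCs to PDGFRα+SCA1+ cells (-1.43 ± 0.45, adjusted p = 0.0389) had an adjusted p of 0.0581 with the mouse as a block and was lost without any 1 of 5 libraries (up to 0.134 without the PDGFRα+SCA1+ library of mouse A).

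Lamc3, the γ3 chain, was near 0 in 1 fraction and high in the others. It stood at 112, 53.8 and 67.5 in DCs. PDGFRα+SCA1+ cells had 241, 235 and 199.7, PDGFRα+SCA1- cells 24.0, 61.5 and 179.5, and PDGFRα-SCA1+ cells 0.0298, 0.0941 and 0.112. DCs and both mesenchymal fractions lay above every PDGFRα-SCA1+ library, with a difference of -7.71 ± 0.57 (adjusted p = 2.7e-06) to PDGFRα+SCA1+ cells and of -6.12 ± 0.57 (adjusted p = 9.33e-06) to DCs. PDGFRα+SCA1+ cells did not overlap DCs, but the rise of 1.59 missed the threshold (adjusted p = 0.0633), which it passed with quantile normalization (0.0307), with the reuse of totals undone (0.0185) and with only the 2 groups compared (0.00208).

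The PDGFRα-SCA1+ fraction carried another set of chains, with Itgb7, Itga1 and Itgb3 above DCs. Between it and DCs 20 of 34 members differed, 8 higher and 12 lower, against 22.8% of all genes, 11.5% higher and 11.3% lower, with a median of -0.11 for the members and -0.04 for all genes. Between it and PDGFRα+SCA1+ cells 18 of 34 differed, 8 higher and 10 lower, against 18.8% of all genes, 10.9% higher and 7.86% lower, with a median of -0.12 for the members and 0.25 for all genes. For the latter comparison quantile normalization turned the split of all genes called from 1855 higher and 1339 lower to 1412 and 1675, while that of the members was again 8 and 10. Without 1 library these counts were 13 to 20 and 14 to 17, the 13 being without the DC library of mouse A. Itgb7, known from lymphocyte homing, stood at 54.6, 46.1 and 94.4, against 7.47 or less in the other 9 libraries, and exceeded DCs by 5.74 ± 0.80 (adjusted p = 0.000212). Itga1, a collagen and laminin receptor chain, stood at 188, 249.8 and 121, against 40.6 to 138 in the PDGFRα+ and 0.859 to 16.5 in the DC libraries (4.71 ± 0.65 over DCs, adjusted p = 0.000198), so that it overlapped the PDGFRα+SCA1- cells but not the DCs. Its 1.99 over PDGFRα+SCA1+ cells had an adjusted p of 0.0524, or 0.0403 with the mouse as a block. Itgb3, the beta chain of the αvβ3 vitronectin receptor, stood at 21.6, 14.8 and 33.9, and at 0 in all 3 DC libraries, which makes it at least 301-fold higher than in DCs against the value of 3 reads. One PDGFRα+SCA1- library, of mouse A, overlapped it at 27.9. Lama3, Lama4, Lama5, Itga6 and Itgb4 were all higher than in PDGFRα+SCA1+ cells, by 3.91 ± 0.46, 2.12 ± 0.45, 3.20 ± 0.47, 3.95 ± 0.77 and 2.59 ± 0.68 (adjusted p = 7.96e-05, 0.00583, 0.000422, 0.00332 and 0.0187). Without the mouse E library of the gate Lama3 and Lama5 were higher by 3.77 and 2.90 (adjusted p = 0.000413 and 0.00292). The call of Itgb4 was lost without the mouse F library of the gate (adjusted p = 0.0717) or the PDGFRα+SCA1+ library of mouse E or F (0.059 and 0.0574). Itgb3 exceeded PDGFRα+SCA1+ cells at an adjusted p of 0.0305, lost without any 1 of 4 libraries (up to 0.0946 without the PDGFRα+SCA1+ library of mouse F). Itgae, the chain of intraepithelial lymphocytes, stood at 2.45, 3.81 and 0.688 and at 0.0793 or less in the PDGFRα+ fractions, with an adjusted p of 0.0276 against PDGFRα+SCA1+ cells and 0.0505 with the mouse as a block.

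Of the leukocyte integrins, Itgb2, Itgal and Itga4 were highest in 1 library, the PDGFRα-SCA1+ one of mouse F. Itgb2, the common beta chain of leukocyte integrins, stood at 0, 8.02 and 45.8 in the PDGFRα-SCA1+ fraction, in the order of mice A, E and F, and Itgal, its partner in LFA-1, at 0.252, 4.45 and 25.7. Itga4 stood at 0, 0 and 4.87 in the same libraries. Ptprc, the gene of CD45, was at 3.10, 0.224 and 75.2 there and Coro1a at 1.88, 17.4 and 283, and the part of leukocyte RNA in the values of these 3 integrins was not tested. The other leukocyte alpha chains had other orders. Itgae was lowest in that mouse F library, Itgam stood at 4.82, 4.98 and 0 in PDGFRα+SCA1- cells against 0.200 or less in PDGFRα-SCA1+ cells, Itgax was seen only in the PDGFRα+SCA1- library of mouse E, at 1.45, and Itgad in none. Itgb7, which stood at 54.6 in mouse A, was high in all 3 libraries of the PDGFRα-SCA1+ gate. Of the T and NK cell markers, Cd3g and Nkg7 were listed at 0 in mouse A, as Itgb2 was, but Cd3e stood at 13.3 there and at 17.6 and 40.9 in mice E and F, and the part of lymphocyte RNA in the Itgb7 values was not tested. Itga2b, the platelet chain, was uneven, at 25.4, 15.9 and 0 in PDGFRα+SCA1- cells and 0 to 10.7 elsewhere, and no comparison among the fractions called it with all libraries, while PDGFRα+SCA1- cells exceeded DCs without their mouse F library (adjusted p = 0.00331). Itga4, Itga10, Itgad, Itgae, Itgam, Itgax and Itgb2l did not reach a fraction mean of 10. About 68.7% of the Itgam exon bases and 33.5% of those of Itga10 lie in exons of another annotated gene on the same strand, so reads of these 2 genes are uncertain.

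Between the 2 PDGFRα+ fractions, which differ by SCA1, none of 34 members differed in limma, where 0.587% of all genes did, 0.435% higher and 0.153% lower, with a median of -0.28 for the members and 0.15 for all genes. The 100 genes called, 74 higher and 26 lower, were 54 under quantile normalization, 31 and 23. At an unadjusted p below 0.05 there were 4 of 34 members and 1985 of 17028 genes tested, a similar share. The 4 were Itga10, Itga11 and Itga5, lower in PDGFRα+SCA1+ cells by 1.52 ± 0.38, 1.35 ± 0.56 and 0.67 ± 0.22, and Lamc3, higher by 1.78 ± 0.57 (adjusted p = 0.129, 0.377, 0.235 and 0.228). Without the PDGFRα+SCA1- library of mouse F, 2 members passed, Lamc3 and Lama1. The 5 smooth muscle markers summed to 558 to 1267 in PDGFRα+SCA1- libraries and to 216 to 279 with SCA1. The gap was wider in fold for Myh11, at 148 to 369 against 17.5 to 21.0, and for Actg2, at 207 to 427 against 3.73 to 9.07. The rest of the list was therefore closer between the fractions. The part of smooth muscle RNA in the member values was not tested.

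Partners of the members in the basement membrane and at adhesions were compared between the same fractions. Of all genes tested, 23.8% differed from DCs in PDGFRα+SCA1+ cells, 9.85% higher and 14% lower. The share was 22.8% in PDGFRα-SCA1+ cells, 11.5% higher and 11.3% lower, and 0.587% between the PDGFRα+ fractions. Of 9 basement membrane partners of laminin, 4 rose and 2 fell from DCs to PDGFRα+SCA1+ cells, with Nid1 and Nid2, the nidogens that bridge laminin and collagen IV, higher by 8.11 and 6.28 and Bcam, a laminin α5 receptor, lower by 4.15 on the log2 scale. In PDGFRα-SCA1+ cells 6 rose and 1 fell. Of 15 adhesion adaptors, 2 rose and 5 fell in PDGFRα+SCA1+ cells, led by Fermt1, the epithelial kindlin, which stood at 95.9, 105 and 123 in DCs and at 0 to 0.0268 in PDGFRα+SCA1+ cells (adjusted p = 1.79e-05). In PDGFRα-SCA1+ cells 6 adaptors rose, with Parvb and Lims2 highest, and 4 fell. Fermt3, the kindlin of blood cells, stood at 0.0535, 6.76 and 48.0 there, the same order over mice as Itgb2. Of 11 integrin ligands other than laminin, 2 rose and 4 fell in PDGFRα+SCA1+ cells, the rises being Tnc and Thbs1. Of 3 hemidesmosome partners tested, Col17a1 not passing the filter, none differed between PDGFRα+SCA1+ cells and DCs in limma. At an unadjusted p below 0.05 there were 2, against 5939 of the 17028 genes tested. Npnt, nephronectin, the ligand of α8β1, was the 1 gene of the partner lists that differed between the PDGFRα+ fractions, with 2.47 to 3.96 in the SCA1+ and 23.6 to 155 in the SCA1- one (-4.27, adjusted p = 0.0278).

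In the transwell experiment, day 0 DCs and SCA1+Msc differed at 26 of 31 members tested, 14 higher and 12 lower in SCA1+Msc, against 46.1% of all genes, 21.4% higher and 24.7% lower. The 7 members that did not pass the filter were Itga10, Itga4, Itgad, Itgae, Itgal, Itgam and Itgax. The largest rises were Lama2 (5.92 ± 0.27), Itga11 (5.09 ± 0.33) and Itga8 (4.87 ± 0.29) and the largest falls Itgb6 (-5.44 ± 0.49), Itga3 (-4.69 ± 0.45) and Itga2 (-4.55 ± 0.30). Lamc3 stood at 78.9 and 101 in DCs and 143 and 109 in SCA1+Msc and did not differ past the threshold (adjusted p = 0.442). The part of hepatocyte and erythroid RNA in these day 0 values was not tested.

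**Figure D2:**
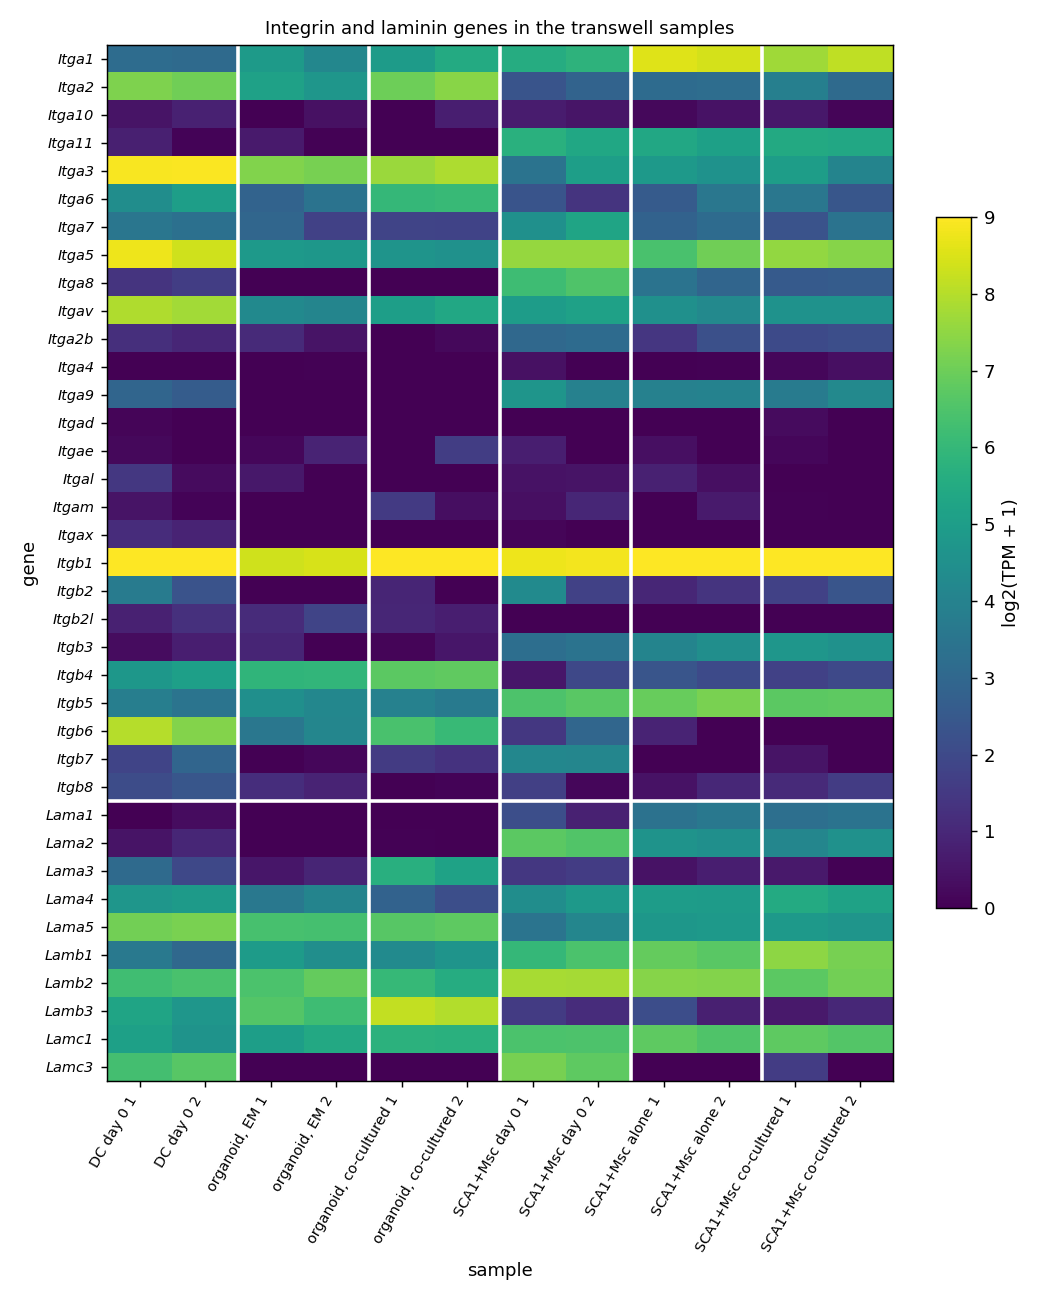
Each row is an integrin or laminin gene and each column 1 of the 12 transwell libraries, named by group and replicate; colour gives log2(TPM + 1). Lamc3 is bright in the 4 day 0 libraries and at or near 0 in the cultured ones, and Lama3 and Itga6 are brightest in the co-cultured organoids.

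After 15 days in EM, most of the members that changed in DCs were lower. Of 31 members 20 differed from day 0, 4 higher and 16 lower, against 44.4% of all genes (27.1% higher and 17.2% lower), with a median of -0.99 for the members and 0.12 for all genes. Leaving out 1 library gave 13 to 18, the 13 without the second day 0 DC library. Lamc3 stood at 78.9 and 101 at day 0 and was listed at 0 in both EM and both co-cultured libraries, at least 1169-fold lower in EM and 1381-fold lower in co-culture against the value of 3 reads. Itga5 stood at 437 and 326 at day 0, 27.6 and 26.4 in EM and 24.5 and 22.2 in co-culture, a fall of 3.76 ± 0.20 (adjusted p = 1.13e-06) in EM and of 3.96 ± 0.20 (adjusted p = 1.02e-06) in co-culture. Both kinds of organoid therefore lay far below every day 0 library for these 2 genes. Itgav stood at 239.6 and 217 at day 0, 18.3 and 16.2 in EM and 31.8 and 41.1 in co-culture (EM minus day 0 -3.65 ± 0.18, adjusted p = 6.62e-07). Itgb6 stood at 252 and 160.4 at day 0 and 10.9 and 16.6 in EM (-3.80 ± 0.49, adjusted p = 0.00021). Itga3 stood at 477 and 489 at day 0 and 157 and 140.0 in EM, and its call (adjusted p = 0.0127) was lost without any 1 of 3 of the 4 libraries (adjusted p up to 0.0652 without the second EM library). Itgb1 fell from 532 and 529 to 325 and 348 (-0.65 ± 0.07, adjusted p = 6.55e-05). The 4 rises in EM were Lamb3 (1.42 ± 0.41), Itga1 (1.39 ± 0.27), Lamb1 (1.35 ± 0.27) and Itgb5 (0.66 ± 0.19). Quantile normalization ended the call of Itgb5 (adjusted p = 0.322), and those of Itgb5 and Lamb3 were lost without the second day 0 library (adjusted p = 0.136 and 0.118) or the first EM library (0.134 and 0.106). Itga9 fell from 6.59 and 5.13 and Itgb2 from 12.6 and 3.93, both to libraries listed at 0, and the call of Itgb2 (adjusted p = 0.0106) was lost without the first day 0 library (0.087). The 4 leukocyte markers summed to 36.3 and 49.7 at day 0 and to at most 1.76 in EM, and their part in the Itgb2 values was not tested.

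Co-cultured organoids, compared with EM organoids, carried more of the α3 and β3 laminin chains and of 6 integrin chains, Itga2, Itga6, Itgav, Itgb1, Itgb6 and Itgb7. Of 31 members 10 differed, 8 higher and 2 lower, against 12.9% of all genes (5.73% higher and 7.21% lower), with a median of 0.02 for the members and -0.13 for all genes. Quantile normalization turned the split of all genes called from 1040 higher and 1308 lower to 1154 and 980, and that of the members was again 8 and 2. Without 1 library the count was 5 to 8, the 5 without the second co-cultured library and 6 without the second EM library. Lama3 stood at 7.71 and 2.84 in day 0 DCs, 0.444 and 0.903 in EM and 50.4 and 35.8 in co-culture. Both co-cultured libraries exceeded every other library of the experiment, and the difference to EM was 4.71 ± 0.43 (adjusted p = 0.000141). Lamb3 stood at 36.9 and 25.2 at day 0, 94.5 and 73.4 in EM and 289 and 249.9 in co-culture. It was 1.68 ± 0.41 higher in co-culture than in EM (adjusted p = 0.0256). That call was lost without any 1 of the 4 libraries (adjusted p up to 0.155 without the second EM library). Lama3 and Lamb3 had different courses over the groups, with Lamb3 above day 0 in both kinds of organoid and Lama3 above it in co-culture and below it in EM. The difference of Lama3 between EM and day 0 was -1.80. It was -1.21 without the first day 0 library and -1.60 without the first EM library, and each of these lost the call.

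**Figure D3:**
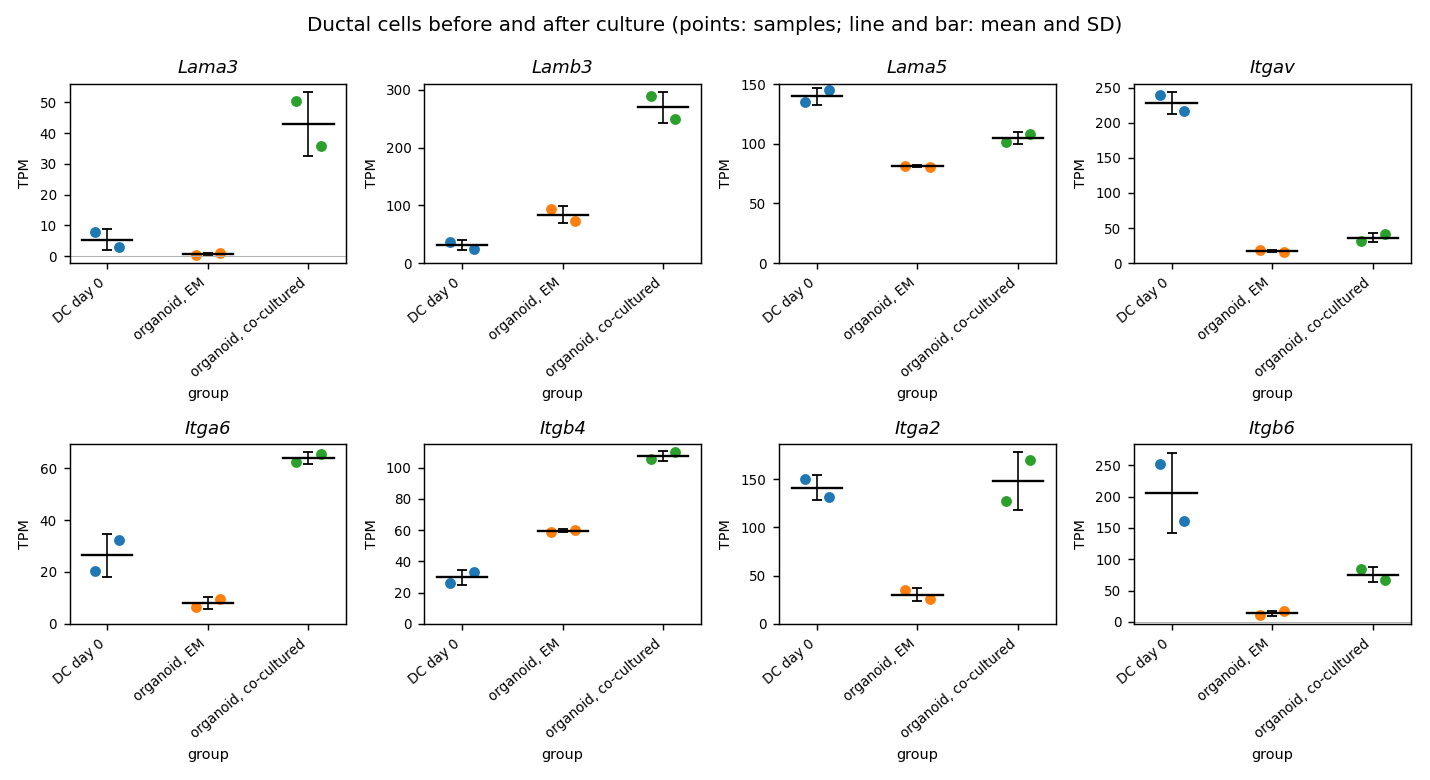
TPM (vertical axis, from 0) of 8 genes in day 0 DCs, EM organoids and co-cultured organoids; points are the 2 samples of each group, the line is the mean and the bar the SD. Lama3, Lamb3, Itga6 and Itgb4 are highest in the co-cultured organoids, while Itga2 lies around its day 0 values there and Itgb6 below them.

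Of the receptor chains of laminin, Itga6 and Itgb1 rose over EM, and Itgb4 and Itga3 missed the threshold. Itga6 stood at 20.4 and 32.3 at day 0, 6.32 and 9.73 in EM and 62.2 and 65.5 in co-culture, 2.87 ± 0.50 above EM (adjusted p = 0.00494). Itgb4, its partner in hemidesmosomes, stood at 26.4 and 33.2, 58.9 and 60.3, and 105 and 109.7. Its groups did not overlap in any pair, and it exceeded day 0 in co-culture by 1.83 ± 0.39 (adjusted p = 0.00412) but missed the threshold against EM (0.84, adjusted p = 0.21), which it passed on the RPKM as deposited (0.0352). Itga3 stood at 157 and 140.0 in EM and at 200.4 and 234 in co-culture, 0.55 ± 0.45 above EM (adjusted p = 0.534). Itga2 stood at 151 and 132 at day 0, 34.8 and 25.8 in EM and 127 and 169.6 in co-culture, 2.25 ± 0.30 above EM (adjusted p = 0.00122). In co-culture Itga2 overlapped its day 0 values. Itgb6 stood at 84.1 and 66.5 in co-culture, 2.39 ± 0.49 above EM (adjusted p = 0.012), and below both day 0 libraries. The Itgb6 call was lost without 3 of the 4 libraries in turn (adjusted p up to 0.0909). Itgav rose by 1.03 ± 0.18 over EM (adjusted p = 0.00476) and Itgb1, at 569 and 556, by 0.74 ± 0.07 (adjusted p = 0.000179), with 0.08 between co-culture and day 0 (adjusted p = 0.381), or -0.06 under quantile normalization. Itgb7 (1.96 and 1.50 against 0 and 0.114) had an adjusted p of 0.0463 that no leave-out kept. Lama4, the α4 chain of vessels and sinusoids, fell by 1.33 ± 0.28 (adjusted p = 0.0127). Lamb2, a common β chain and the most abundant one in day 0 DCs, fell by 0.87 ± 0.20 (adjusted p = 0.0197). Without the second EM or the second co-cultured library the differences were -1.09 and -1.004 for Lama4 and -0.651 and -0.631 for Lamb2. Each of these lost the call. Lama3, Itga6, Itga2, Itgav and Itgb1 passed the threshold in each alternative and with each library left out.

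**Figure D4:**
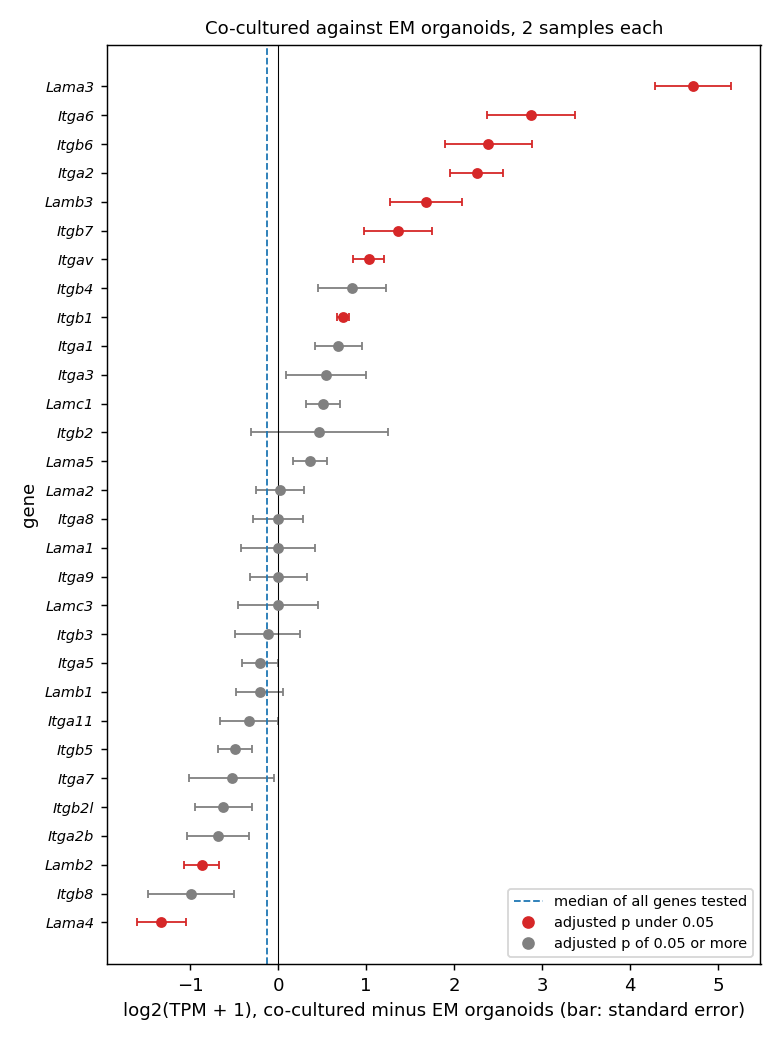
Each point is the log2(TPM + 1) difference of a tested gene between co-cultured and EM organoids, 2 samples each, with its standard error from limma; red points have an adjusted p under 0.05 and the dashed line is the median of all genes. Lama3 at 4.71 lies farthest to the right and Lama4 at -1.33 farthest to the left.

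The bases before the transcription start are shown for 4 of the members that rose over EM and, for contrast, for Lama5, whose 0.36 over EM missed the threshold (adjusted p = 0.299). RefSeq promoters of GRCm38.p6 covered 24 of the 38 members, and Lama3 and Itga6 were not among them. Each line gives the 250 bases up to the base before the start, read 5′ to 3′ along the gene, and for Lamb3 the second and for Itgb6 the first of 2 starts. Capitals mark matches, on either strand, to TGANTCA (AP-1), GGAATG (TEAD) or GGGCGG (GC box).
Itga2, chr13:114932101-114932350, - strand: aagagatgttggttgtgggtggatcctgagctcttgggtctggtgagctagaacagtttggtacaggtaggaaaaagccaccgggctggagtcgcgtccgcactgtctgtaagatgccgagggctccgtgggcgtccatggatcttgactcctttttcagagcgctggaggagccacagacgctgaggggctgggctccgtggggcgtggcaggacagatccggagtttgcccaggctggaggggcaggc
Itgb6, chr2:60722604-60722853, - strand: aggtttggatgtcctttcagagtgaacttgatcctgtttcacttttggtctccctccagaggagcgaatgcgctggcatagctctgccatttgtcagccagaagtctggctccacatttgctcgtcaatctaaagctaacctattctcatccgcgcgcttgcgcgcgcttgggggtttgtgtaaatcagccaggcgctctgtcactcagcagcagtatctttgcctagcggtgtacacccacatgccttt
Lamb3, chr1:193301993-193302242, + strand: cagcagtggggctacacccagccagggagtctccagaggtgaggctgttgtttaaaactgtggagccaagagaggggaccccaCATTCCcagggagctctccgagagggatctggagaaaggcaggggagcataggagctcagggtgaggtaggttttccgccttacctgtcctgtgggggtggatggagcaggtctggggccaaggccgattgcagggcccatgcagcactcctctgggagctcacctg
Itgb1, chr8:128685404-128685653, + strand: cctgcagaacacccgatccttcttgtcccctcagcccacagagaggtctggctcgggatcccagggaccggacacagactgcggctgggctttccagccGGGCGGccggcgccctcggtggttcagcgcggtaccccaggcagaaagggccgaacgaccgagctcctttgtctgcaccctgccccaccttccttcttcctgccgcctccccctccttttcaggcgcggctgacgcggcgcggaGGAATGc
Lama5, chr2:180225860-180226109, - strand: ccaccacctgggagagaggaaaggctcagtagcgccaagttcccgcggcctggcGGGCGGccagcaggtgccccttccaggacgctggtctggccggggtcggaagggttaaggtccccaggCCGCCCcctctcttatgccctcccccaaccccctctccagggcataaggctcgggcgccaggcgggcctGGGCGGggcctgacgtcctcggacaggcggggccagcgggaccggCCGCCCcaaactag
Of 32851 promoters of this length, 6.75% held the AP-1 letters, 12.6% the TEAD letters and 32.7% the GC box. Among the 24 members 1, 3 and 8 held them. Itga2 and both starts of Itgb6 matched none of the 3, nor did the first start of Lamb3, while the second start of Lamb3 held CATTCC, the reverse complement of the TEAD letters, at bases -167 to -162, Itgb1 held 1 TEAD match and 1 GC box, and Lama5 held 4 GC boxes. A match is a run of letters and not evidence of binding.

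Against day 0 DCs, co-cultured organoids differed at 17 of 31 members, 6 higher and 11 lower, where 42.3% of all genes differed (23.2% higher and 19.1% lower), with 12 to 15 when 1 library was left out. The 3 largest rises were Lamb3 (3.10 ± 0.41), Lama3 (2.91 ± 0.43) and Itga1 (2.08 ± 0.27), which stood at 8.00 and 7.72 at day 0 and 30.0 and 44.0 in co-culture. The 3 largest falls were Lamc3, Itga5 and Itga9, all shared with EM organoids, with which this comparison shares its day 0 samples. Lama4 fell from 25.3 and 29.1 to 6.08 and 3.52 (-2.32 ± 0.28, adjusted p = 0.000141). Lama5 stood at 135 and 145 at day 0, 81.7 and 80.9 in EM and 101 and 108 in co-culture, and fell below day 0 in EM (adjusted p = 0.0102; 0.127 in co-culture, or 0.0299 there under quantile normalization), where in EM the call was lost without the second day 0 library (adjusted p = 0.0605).

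Between co-cultured and EM organoids, where 12.9% of all genes differed, 1 of 3 hemidesmosome partners tested rose: Plec, plectin, which links β4 to keratin, stood at 24.0 and 23.7 in EM and 54.4 and 52.4 in co-culture (1.13, adjusted p = 0.00054). Of 9 basement membrane partners, Nid1, Nid2 and Col4a2 rose. Of 10 other ligands 3 rose and 2 fell, with Tnc, tenascin-C, changing most, from 2.09 and 2.03 to 9.86 and 10.5 (1.87, adjusted p = 0.0038). Of 14 adhesion adaptors 1 fell, Fermt2, and none rose, a share of 7.14%. Npnt rose over day 0 in both kinds of organoid, from 3.79 and 4.55 to 35.2 and 39.3 in EM and 65.9 and 72.2 in co-culture, and Vtn, vitronectin, at 242 and 322 on day 0, fell by 6.02 in EM and 7.59 in co-culture on the log2 scale. The 4 hepatocyte markers had the same order, with sums of 4188 to 5298 at day 0, 1347 to 1413 in EM and 153 to 349 in co-culture, and the part of hepatocyte RNA in the Vtn values was not tested.

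After culture alone 14 of 31 members differed from day 0, 4 higher and 10 lower, against 44.8% of all genes (27.4% higher and 17.5% lower), with a median of -0.21 for the members and 0.19 for all genes and 12 to 15 calls without 1 library. Lamc3 stood at 143 and 109 at day 0, at 0 in both libraries cultured alone and at 2.02 and 0 in co-culture, and was at least 1883-fold lower after culture alone against the value of 3 reads. Itgb7 stood at 16.9 and 16.4 at day 0 and was listed at 0 after culture alone (at least 113-fold lower). Itga8 stood at 72.2 and 91.8 at day 0, 9.85 and 6.64 alone and 4.82 and 5.08 in co-culture (alone minus day 0 -3.18 ± 0.29, adjusted p = 2.45e-05). Markers of several other cells were lower in the same libraries. The endothelial sum moved less, from 236 and 271 at day 0 to 138 and 218 alone and 253 and 162 in co-culture. The smooth muscle sum was higher after culture alone, at 559 and 540 against 355 and 351 at day 0. Between day 0 and culture alone the sums of markers went from 20900.4 and 16230 to at most 13.1 for hepatocytes, from 8678 and 10762 to at most 1.81 for erythroid cells, from 107.7 and 125 to at most 2.54 for neutrophils and from 1156 and 2417 to 211 and 234 for ductal cells, while the mesenchymal sum went from 25970 and 24495 to 44708 and 42023. The part of these in the falls of members was not tested. The falls of Lamc3, Itgb7 and Itga8 left no overlap between day 0 and cultured libraries. Lama2 stood at 105 and 93.5, 23.9 and 21.1, and 16.6 and 22.7 (-2.09 ± 0.27, adjusted p = 0.000243). Itgb6, the DC chain, fell from 1.78 and 6.78 to 0.880 or less. Epcam fell in the same libraries, from 53.8 and 113 to 7.28 or less, and its part in the fall of Itgb6 was not tested. The call of Itgb6 was lost without the second day 0 library or the second library cultured alone (adjusted p = 0.0989 and 0.112).

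**Figure D5:**
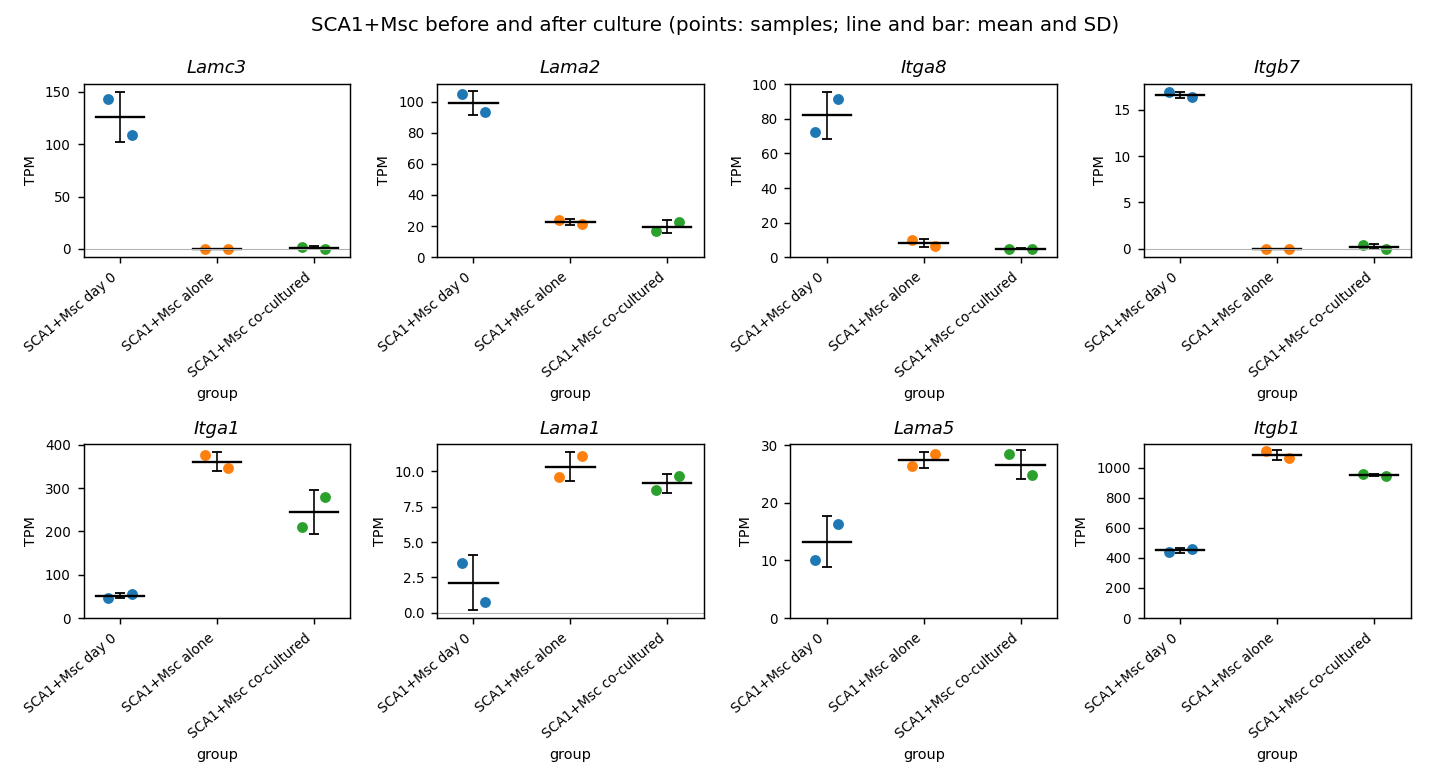
TPM (vertical axis, from 0) of 8 genes in SCA1+Msc at day 0, cultured alone and co-cultured; points are the 2 samples of each group, the line is the mean and the bar the SD. Lamc3, Lama2, Itga8 and Itgb7 are high at day 0, and Itga1, Lama1, Lama5 and Itgb1 are higher after culture.

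The 4 rises in cultured SCA1+Msc included 2 laminin α chains and 2 integrins. Itga1 stood at 47.1 and 56.0 at day 0, 378 and 346 alone and 209.8 and 281 in co-culture (2.79 ± 0.27, adjusted p = 3.52e-05). Itgb1 stood at 439 and 462, 1112 and 1065, and 956 and 948 (1.27 ± 0.07, adjusted p = 1.36e-06). Both were highest after culture alone. Lama1 rose by 2.01 ± 0.42 (adjusted p = 0.00355), from 3.52 and 0.754 to 9.63 and 11.1, and Lama5 by 1.03 ± 0.20 (adjusted p = 0.0022), from 10.1 and 16.4 to 26.4 and 28.5. Lamb1, Lamc1, Lamb2, Lama4, Itga11 and Itgb5 stood at 20.4 or more in all 6 SCA1+Msc libraries and passed no threshold between day 0 and culture alone, where Lamb2 had an adjusted p of 0.0919 and of 0.0381 under quantile normalization. In co-culture 2 of these 6 differed from day 0, where 7858 of all 18136 genes tested did. Lamb1, at 62.6 and 87.2 on day 0 and 176 and 140.6 in co-culture, rose by 1.08 (adjusted p = 0.00872). Lamb2, at 224 and 218 and then 105 and 136, fell by 0.88 (adjusted p = 0.00563). Between day 0 and culture alone, where 44.8% of all genes differed, 5 of 9 basement membrane partners rose and 1 fell. Nid2 rose most (2.37). Of 14 adaptors 6 rose and 4 fell, led by Parva (1.89), and of 10 other ligands Fn1, fibronectin, rose by 2.96 while 6 fell.

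Between SCA1+Msc co-cultured and alone, none of 31 members differed in limma, against 0.127% of all genes, 0.0937% higher and 0.0331% lower. At an unadjusted p below 0.05 there were 2 of 31 members and 1263 of 18136 genes tested, a similar share. The 2 were Itga5 (0.73 ± 0.20, adjusted p = 0.381) and Itgb1 (-0.19 ± 0.07, adjusted p = 0.593). No partner list had a member that differed in this comparison in limma, and at an unadjusted p below 0.05 there were 3 of the other ligands and 1 basement membrane partner.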

How the data were processed

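RNA from sorted or cultured mouse liver cells was made into Smart-seq2 libraries tagmented with Nextera XT. Per the labels, reads were aligned with STAR 2.5.0a to GRCm38 and counted with featureCounts (version 1.6.0 for the transwell samples). The authors deposited RPKM for the transwell samples, converted here to TPM by dividing each column by its sum. The deposited values of the sorted fractions, labelled TPM, are treated as a score: they equal RPKM over column totals that were reused in turn down the table, 0.722 to 1.39 times TPM. Columns of the authors' means were not used. Whole reads were recovered from low values (92.9% and 93.0% whole within 0.02 of a read, for values up to 20 reads) for depth and for the value of 3 reads only, and such floors cover counting error only.

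Genes at 1 or more in at least 3 fraction samples (17028) or 2 transwell samples (18136) were tested with limma 3.58.1 in R 4.3.3 on log2(value + 1), with 1 mean per group, all 12 samples of an experiment and a trended, moderated variance, two-sided, with Benjamini-Hochberg adjustment; the code was tested on simulated data. With 2 or 3 samples a group, p-values measure the spread between these samples. Fractions of the same letter came from the same mouse. Their residuals correlated at 0.0102 to 0.0973, and the mouse block is printed where it changed a call. Genes are named where a group mean reached 10 or a change was among the 3 largest rises or falls of a comparison, and at most 3 genes of each partner list were named by the size of their change, a few others being named for their role after their values were seen. Members, partner lists and markers were chosen with earlier results of these data known. Alternatives were another pseudocount, no filter, quantile normalization, undoing the reuse of totals, RPKM as deposited, a replicate block, only the groups compared and leaving out each library. Whether reads were counted by strand is not given in the sources used here. Gene models were GENCODE M21. A member is in the counts but is not reported here by name.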

Additional observations from a re-analysis of the deposited data

Results flagged for a closer look

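The change from day 0 to co-culture differed between DCs and SCA1+Msc for 14 of 31 members tested, 6 with the higher change in DCs and 8 with the lower, where 28.3% of all 18136 genes tested differed. This was tested as the interaction of cell kind and culture in the same limma fit, a comparison added after the data were seen. The 2 arms shared no samples. Lama3 and Lamb3 changed more upward in DCs, unlike Lama5. The difference, ductal minus SCA1+Msc, was 4.10 for Lama3 (adjusted p = 0.00116) and 3.64 for Lamb3 (0.00166). It was also positive for Itgb7 (2.94), Itga8 (2.30) and Lama2 (1.59), which fell in SCA1+Msc by 3.90, 3.79 and 2.29 on the log2 scale and started higher there at day 0. In day 0 DCs these stood at 2.63 and 6.64, 1.58 and 2.08, and 0.405 and 0.949, so the falls possible in DCs were smaller than those in SCA1+Msc and the low start fixed the sign of these differences. Itga5 gave -3.83 (adjusted p = 2.6e-05), with DCs at -3.96 and SCA1+Msc at -0.13. Lama4 gave -3.01, Itgb8 -2.61, Itga9 -2.43 and Itgav -2.13, each lower in DCs after culture. Lama1 (-1.99), Lama5 (-1.40) and Itgb1 (-0.99) rose in SCA1+Msc and passed no threshold in DCs.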

How the results depend on the processing

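The count of members that differed stayed within 1.5 times its value under each planned setting other than leaving out a library. Leaving out 1 library gave 18 to 21 for PDGFRα+SCA1+ against DCs, 19 to 26 for PDGFRα+SCA1- against DCs, 13 to 20 for PDGFRα-SCA1+ against DCs, 14 to 17 for PDGFRα-SCA1+ against PDGFRα+SCA1+ cells, 0 to 2 between the PDGFRα+ fractions, 13 to 18 for EM organoids and 12 to 15 for co-cultured organoids against day 0, 5 to 8 for co-cultured against EM organoids, 23 to 24 for day 0 SCA1+Msc against DCs, 12 to 15 for SCA1+Msc alone against day 0 and 0 for SCA1+Msc co-cultured against alone. Fewer samples were then fitted. Where this left 1 sample in a group, that sample was assumed to vary like the other groups. Over the members followed one by one, a call was lost in 132 of 894 with a library left out, 16 of 184 with a pseudocount of 0.1, 10 of 184 without the filter, 4 of 184 with quantile normalization, 3 of 91 on RPKM as deposited, 2 of 89 with the reuse of totals undone and 1 of 90 with only the groups compared. Over all members tested, a call was gained 53 times, by 22 members: 23 times with a library left out, 12 with quantile normalization, 8 on RPKM as deposited, 4 with a pseudocount of 0.1, 4 with only the groups compared, and once each with the reuse of totals undone and with the mouse as a block. The cause was not tested. The direction turned once, for Itgb1 between co-cultured organoids and day 0 DCs, at -0.0629 under quantile normalization, with no call in either setting. The mouse as a block ended 2 calls, Lama4 and Itgae, gained that of Itga1 between PDGFRα-SCA1+ and PDGFRα+SCA1+ cells, and changed no other. In the labels, transwell samples share only a replicate number, which is not tied to a mouse, with residual correlations of 0.00428 to 0.0295. With that number as a replicate block, 15 members in place of 17 differed between co-cultured organoids and day 0 and 9 in place of 10 between co-cultured and EM organoids, and the other counts were equal. With 2 samples a group and genes near 1 read, small changes of low members were not detectable.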
